A study of Rattus norvegicus with 18 samples.

Results

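The AMPA receptor genes Gria1, Gria2, Gria3 and Gria4 and the auxiliary subunit genes Cacng2, Cacng3, Cacng8, Cnih2 and Cnih3 were examined in the dorsal hippocampus of rats on an ethanol diet and in withdrawal from it. These 9 genes were chosen by name as pore-forming, TARP and cornichon subunits of the receptor, out of 38445 genes in the files. All 9 passed the filter on low counts, which 17853 genes passed. Bulk RNA was sequenced from 18 adult male Sprague-Dawley rats, with no genetic change in any group. The 6 control rats received a Lieber-DeCarli liquid diet without ethanol. The 6 ethanol rats received the diet with 9% v/v ethanol for 16 days and were not withdrawn (0 h). The 6 withdrawal rats received it for 15 days and then control diet for 24 h. According to the paper, both ethanol groups were first brought to this dose gradually on lower ethanol concentrations, and rats were pair fed. Each library came from a separate animal, and a single withdrawal time and a single sex were sampled.

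AMPA receptors carry most of the fast excitatory current between neurons. Their pore is built from the subunits GluA1 to GluA4, the products of the Gria genes, and edited GluA2 makes the channel nearly impermeable to calcium. TARPs, the products of the Cacng genes studied here, bring the receptor to the synapse and slow its closing. The cornichons encoded by Cnih2 and Cnih3 help the receptor leave the endoplasmic reticulum and slow its deactivation. In hippocampal pyramidal neurons GluA1, GluA2, the Cacng8 product and the Cnih2 product are major partners, and GluA4 is known for its place in interneurons and in the thalamus.

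None of the 9 genes was differentially expressed (DE) in any of the 3 comparisons. The test was limma-voom on all 18 rats with 3 surrogate variables, which are unnamed sources of variation estimated from the libraries themselves, and a gene was called DE at q < 0.1 after Benjamini-Hochberg adjustment over all genes tested. Between ethanol and control 0 of 9 were called, where 0.493% of all genes tested were. Between withdrawal and control 0 of 9 were called against 5.41% of all genes (2.87% higher and 2.54% lower in withdrawal). Between withdrawal and ethanol 0 of 9 were called against 2.72% (1.18% higher and 1.54% lower in withdrawal). At an unadjusted p under 0.05 the numbers were 1, 0 and 2 of 9, against 12.5%, 19.8% and 16.5% of all genes. The groups overlapped for all 9 genes in every comparison, while they did not overlap for 1.32% of all genes in ethanol vs control, 1.06% in withdrawal vs control and 1.22% in withdrawal vs ethanol. Cnih2 came closest, with log2 fold changes of 0.23 in ethanol vs control and -0.23 in withdrawal vs ethanol (q = 0.153 and 0.118, limma-voom). The quasi-likelihood test of edgeR called 0 of 9 in each comparison with and without surrogate variables, and DESeq2 called 0, 0 and 1. Over all genes in the 3 comparisons, edgeR called 0.538%, 5.77% and 2.98% with 3 surrogate variables and 0.347%, 0.185% and 3.82% without, and DESeq2 called 2.41%, 2.44% and 8.08%. The 95% intervals of the 9 genes reached from -15.9% to 29.2% in ethanol vs control, from -14.6% to 16.7% in withdrawal vs control, and from -23.01% to 25.7% in withdrawal vs ethanol.

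**Figure D1:**
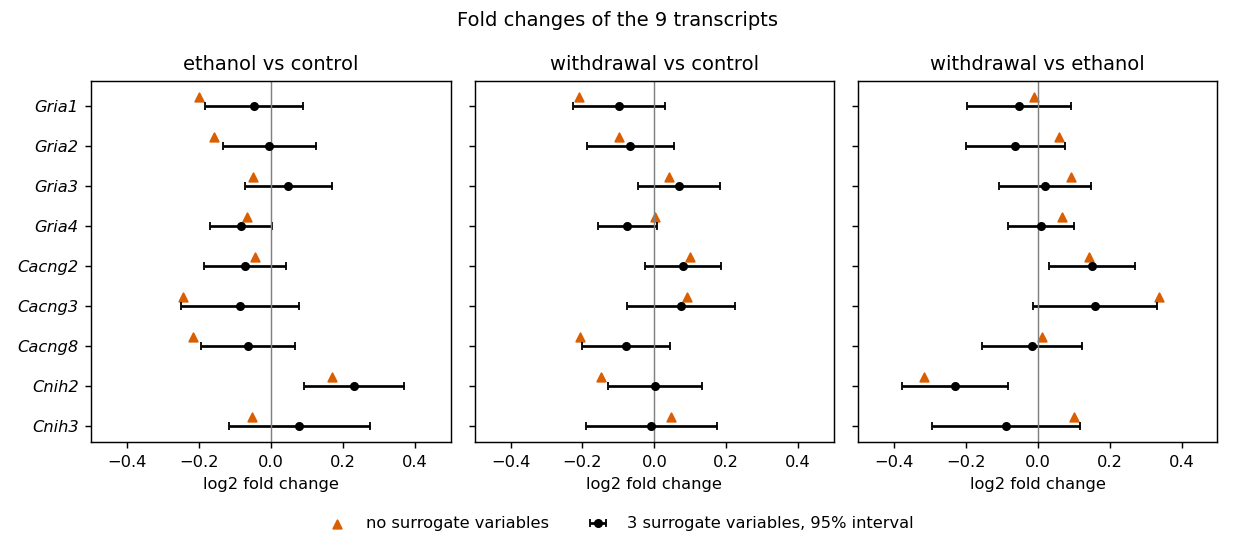
Log2 fold changes of the 9 transcripts in the 3 comparisons. Circles and bars are the estimates with 3 surrogate variables and their 95% intervals, and triangles are the estimates without surrogate variables, 6 rats per group. The intervals of Cnih2 exclude 0 in ethanol vs control (0.23) and withdrawal vs ethanol (-0.23), and that of Cacng2 in withdrawal vs ethanol (0.15), before adjustment over all genes.

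Promoter sequence was found in RefSeq (assembly GRCr8) for 6 of the 9 genes. It is printed for Cnih2, the gene closest to the threshold, for Cacng8, whose level followed that of Cnih2 from rat to rat, and for Gria4, whose level moved opposite to both. Each run holds the 250 bases before the transcription start, 5′ to 3′ on the gene's strand. Capitals mark the GC box GGGCGG and the E-box CAGCTG on either strand, so that a GC box on the other strand reads CCGCCC. No base belongs to both motifs, and CAGCTG reads the same on both strands.
Cnih2, chr1:211834438-211834687, minus strand: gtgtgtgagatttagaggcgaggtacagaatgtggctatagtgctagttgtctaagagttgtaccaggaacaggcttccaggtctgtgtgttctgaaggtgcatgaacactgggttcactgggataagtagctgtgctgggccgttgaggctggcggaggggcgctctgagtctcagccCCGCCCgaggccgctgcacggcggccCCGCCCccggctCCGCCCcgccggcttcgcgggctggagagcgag
Cacng8, chr1:74691004-74691253, minus strand: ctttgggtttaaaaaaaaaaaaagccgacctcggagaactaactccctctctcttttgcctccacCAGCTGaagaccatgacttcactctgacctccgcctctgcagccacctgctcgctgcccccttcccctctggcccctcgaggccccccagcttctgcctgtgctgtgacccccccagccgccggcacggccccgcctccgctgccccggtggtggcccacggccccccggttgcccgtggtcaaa
Gria4, chr8:10319882-10320131, minus strand: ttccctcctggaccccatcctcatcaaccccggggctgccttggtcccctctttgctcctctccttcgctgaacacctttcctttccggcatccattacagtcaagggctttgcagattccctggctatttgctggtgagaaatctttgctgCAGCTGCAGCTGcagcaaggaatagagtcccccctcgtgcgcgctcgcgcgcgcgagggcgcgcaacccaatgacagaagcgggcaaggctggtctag
The Cnih2 window holds 3 GC boxes and no E-box, the Cacng8 window 1 E-box, and the Gria4 window 2 adjoining E-boxes. Among 33469 promoter windows of this length, 30.5% hold the GC box and 11.97% the E-box. The windows of Cnih2, Cacng8 and Gria4 hold 17, 14 and 14 CG pairs, against a median of 5 over all windows. These matches describe the letters only, and no binding was measured.

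Total counts on genes ran from 30873228 to 42679748 per rat, and the 9 genes received between 200 read pairs (Cnih3) and 52835 (Gria2) in a rat. Levels are given as CPM, which are counts scaled to the library total, after TMM scaling. They were divided by the exon length in the files, in kilobases, wherever 1 gene was set against another. Hippocampal markers were present in every library, but some libraries stood apart from the rest of their groups. The summed level of 3 CA1 markers (Wfs1, Pou3f1 and Man1a1) was 178 CPM in ethanol rat 1 and 140.0 in withdrawal rat 5, against 324 to 448 in control rats. The sums of ethanol rat 4 (274 CPM) and withdrawal rat 1 (287 CPM) also lay below every control rat. The thalamus list summed to 1748 CPM in ethanol rat 1, and the interneuron list to 899.9 CPM in withdrawal rat 5, each the highest of the 18 rats. The choroid plexus list summed to 27.9 CPM in withdrawal rat 4 and 30.1 in withdrawal rat 5, against 1169 to 5258 in the other withdrawal rats. In bulk tissue, fewer cells of a type cannot be told apart from less RNA per cell. The libraries also carried 3 sets of index sequences. All control rats had the first set, the ethanol rats and withdrawal rats 1 and 2 the second, and withdrawal rats 3 to 6 the third, so that index set and diet cannot be told apart for control.

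Per kilobase of exon, Gria2 was the highest of the 9 transcripts (168 ± 28.8 CPM per kb, SD, n = 18) and lay above Gria1 (133 ± 29.5) in 18 of 18 rats. Gria1 lay above Cacng8 (113.5 ± 28.0) in 18 rats, Cacng8 above Cnih2 (91.5 ± 21.9) in 16, and Cnih2 above Gria3 (54.7 ± 7.25) in 17. Then came Cacng3 (32.5 ± 5.27), Gria4 (27.1 ± 3.74), Cacng2 (18.8 ± 1.497) and Cnih3 (14.4 ± 1.90). Cacng3 lay above Gria4 in 15 rats. The ranges over the 18 rats overlapped between all neighbours in this order other than Gria4 and Cacng2. The exon length of the gene models ran from 483 bases for Cnih3 to 6860 for Gria2, and levels on this scale depend on how complete each model is.

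**Figure D2:**
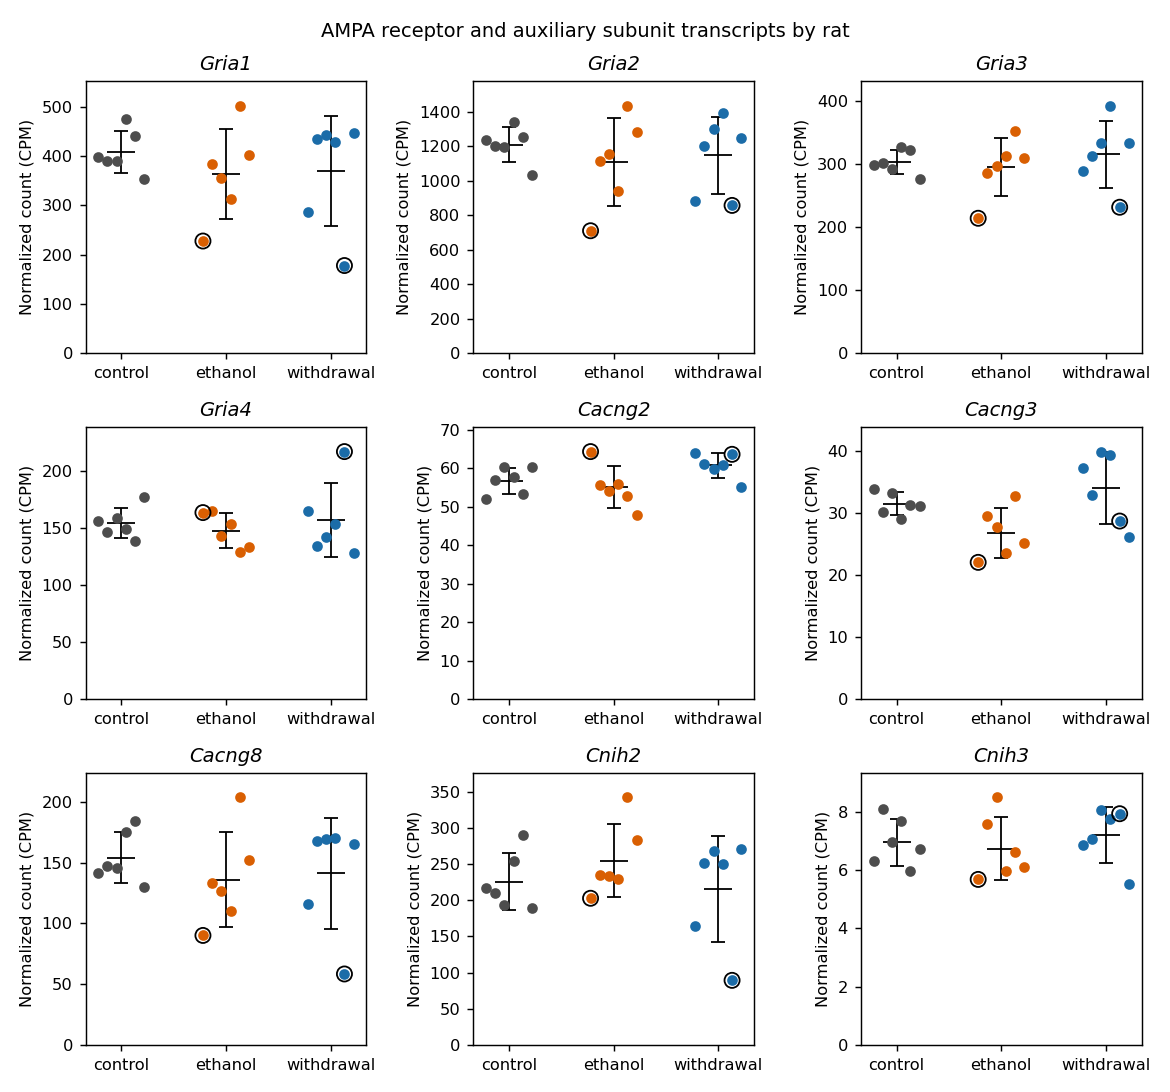
Level of each transcript by rat in CPM, 6 rats per group in the order of their numbers, with the group mean and SD in black. Open circles mark ethanol rat 1 and withdrawal rat 5, which hold the lowest Gria1, Gria2, Gria3, Cacng8 and Cnih2 levels of their groups, and the groups overlap for all 9 genes.

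Gria1 (gene ID 50592, Rnor_6.0 chromosome 10, 42441723 to 42760200, plus strand) encodes GluA1, the subunit delivered to synapses in long-term potentiation. Its level in control rats ran from 355 to 475 CPM with a median of 394. In ethanol rats it ran from 228 to 502 with a median of 369.9, and in withdrawal rats from 178 to 448 with a median of 432. The groups overlapped throughout, and the low values were those of ethanol rat 1 and withdrawal rat 5. The log2 fold change was -0.05 ± 0.06 (SE) in ethanol vs control and -0.10 ± 0.06 in withdrawal vs control (q = 0.814 and 0.385, limma-voom). Without surrogate variables the same differences were -0.20 ± 0.21 and -0.21 ± 0.21, with standard errors 3.22 and 3.42 times as large.

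Gria2 (gene ID 29627, chromosome 2, 179584302 to 179704629, minus strand) encodes the subunit that sets calcium permeability. Control rats lay between 1033 and 1340 CPM (median 1220), ethanol rats between 711 and 1436 (median 1136), and withdrawal rats between 858 and 1395 (median 1228). Ethanol rat 1, withdrawal rat 5 and withdrawal rat 1 were the 3 lowest, and the medians were closer to one another than to these rats. Its fold change in ethanol vs control was the smallest of the 9 (log2 -0.0047 ± 0.061, q = 0.987, limma-voom), with an interval from -8.83% to 8.98%. In withdrawal vs control it was -0.07 ± 0.06 (q = 0.551).

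Gria3 (gene ID 29628, chromosome X, 127561843 to 127829763, plus strand) and Gria4 (gene ID 29629, chromosome 8, 1548145 to 2045874, minus strand) encode the less abundant pore subunits. Gria3 ran from 276.5 to 327 CPM in control rats (median 300.5), from 214 to 352 in ethanol rats (median 304) and from 232 to 393 in withdrawal rats (median 323). It lay above every control rat in 3 of 6 withdrawal rats, but withdrawal rat 5 was below every control rat, and the fold change was 0.07 ± 0.05 (q = 0.510, limma-voom). Without ethanol rat 1 and withdrawal rat 5, a choice made after the data were seen, it was 0.11 ± 0.04 (unadjusted p = 0.00765, q = 0.117, the lowest over 32 alternatives, with 0.935 the highest). Gria4 ran from 139 to 177.5 CPM in control rats, 129 to 165 in ethanol rats and 128 to 217 in withdrawal rats, with medians of 153, 148 and 148. Its highest value was that of withdrawal rat 5, the rat with the lowest Gria1. The fold change of Gria4 was -0.08 ± 0.04 in ethanol vs control (q = 0.427) and -0.07 ± 0.04 in withdrawal vs control (q = 0.295), and 0.00086 in the latter without surrogate variables.

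The share of Gria2 in the summed length-scaled level of the pore genes stayed between 41.4% and 46.8% in all rats, while that of Gria4 ran from 4.84% to 14.4%. Gria2 made up 44.0% ± 0.987 (SD, n = 6) in control, 43.7% ± 1.94 in ethanol and 44.0% ± 1.81 in withdrawal. Gria1 followed with 35.5% ± 1.14, 34.2% ± 1.94 and 33.2% ± 5.29. Gria3 made up 13.6% ± 0.321, 14.6% ± 1.39 and 15.0% ± 1.19, and Gria4 6.89% ± 1.09, 7.50% ± 2.34 and 7.82% ± 3.53. The wide SD in withdrawal came with withdrawal rat 5, in which Gria1 made up 23.3% and Gria4 14.4% of the sum. In ethanol rat 1 Gria4 made up 11.6%. Without the length scaling Gria2 made up 58.3%, 57.5% and 57.5% in control, ethanol and withdrawal, and the groups still overlapped. The part of tissue composition in the low Gria1 shares was not tested.

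**Figure D3:**
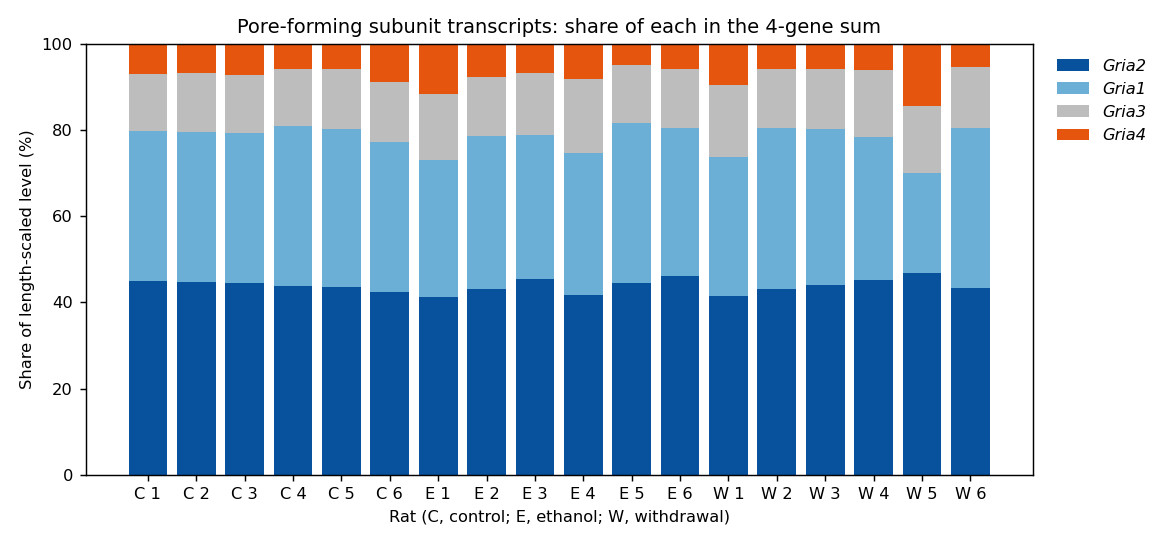
Share of each pore subunit gene in the summed length-scaled level of Gria1 to Gria4, 1 bar per rat. Gria2 and Gria1 make up most of each bar, and Gria4 is widest in withdrawal rat 5 (14.4%) and ethanol rat 1 (11.6%).

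Cacng2, Cacng3 and Cacng8 encode the TARPs γ-2 (stargazin), γ-3 and γ-8. Cacng2 (gene ID 84347, chromosome 7, 119228112 to 119353332, minus strand) was the steadiest of the 9 genes. It ran from 52.1 to 60.2 CPM in control rats (median 57.3), from 47.9 to 64.3 in ethanol rats (median 54.8) and from 55.0 to 64.0 in withdrawal rats (median 61.0). The level in 4 of 6 withdrawal rats lay above every control rat, and none lay above the highest ethanol rat. The fold change in withdrawal vs ethanol was 0.15 ± 0.06 (q = 0.193, limma-voom), and an exact permutation test of the log2 level gave p = 0.0563. Over 32 alternatives q ran from 0.0992 with 4 surrogate variables to 0.404. In withdrawal vs control it was 0.08 ± 0.05 (q = 0.406), and in ethanol vs control -0.07 ± 0.05 (q = 0.621). Within the index set that ethanol rats share with withdrawal rats 1 and 2, the mean log2 CPM was 0.19 higher in withdrawal, against 0.14 over all 6 withdrawal rats.

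Of the 3 group medians of Cacng3 (gene ID 140724, chromosome 1, 192613766 to 192708371, plus strand), that of ethanol rats was the lowest. The same held for Gria1, Gria2, Cacng2, Cacng8 and Cnih3. Cacng3 ran from 29.02 to 33.9 CPM in control rats (median 31.3), from 22.1 to 32.7 in ethanol rats (median 26.4) and from 26.1 to 39.9 in withdrawal rats (median 35.1). In 4 of 6 ethanol rats it lay below every control rat, and in 4 of 6 withdrawal rats it lay above every ethanol rat. The exact permutation test gave p = 0.0303 for ethanol vs control and p = 0.0325 for withdrawal vs ethanol, out of 27 such tests in which the smallest possible p was 0.00216. After adjustment over all genes neither difference was called, with fold changes of -0.09 ± 0.08 (q = 0.694, limma-voom) and 0.16 ± 0.08 (q = 0.337). Without surrogate variables they were larger, -0.25 ± 0.11 (q = 0.414) and 0.34 ± 0.11 (q = 0.123). DESeq2 without surrogate variables called the second (0.35, q = 0.0466, the lowest over 32 alternatives, with 0.657 the highest), and it called 1443 genes in that comparison in place of 485. Within the shared index set the mean log2 CPM was 0.40 higher in withdrawal rats 1 and 2 than in ethanol rats.

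Cacng8 (gene ID 140729, chromosome 1, 64330106 to 64350338, minus strand), the main hippocampal TARP gene, had the widest spread of the 9. Control rats ran from 130.1 to 184 CPM (median 147), ethanol rats from 90.1 to 204 (median 129.9) and withdrawal rats from 58.4 to 170.0 (median 167). In withdrawal 4 rats lay between 165 and 170.0 CPM and rats 1 and 5 lay below every control rat. The fold change was -0.06 ± 0.06 in ethanol vs control (q = 0.721, limma-voom), -0.08 ± 0.06 in withdrawal vs control (q = 0.482) and -0.02 ± 0.07 in withdrawal vs ethanol (q = 0.938). Of the summed length-scaled level of the 3 TARP genes, Cacng8 made up 69.9% ± 3.34 in control, 69.0% ± 5.09 in ethanol and 64.9% ± 9.74 in withdrawal (SD, n = 6). The medians were 68.83%, 68.05% and 68.56%, and the lowest share was 47.4%, in withdrawal rat 5. Cacng3 made up 19.3% ± 2.30, 18.7% ± 1.86 and 22.3% ± 5.52, and Cacng2 the rest.

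Cnih2 (gene ID 361705, chromosome 1, 220474485 to 220480723, minus strand) was the only one of the 9 genes whose interval excluded 0 in 2 comparisons. It ran from 189 to 291 CPM in control rats (median 214), from 203 to 342 in ethanol rats (median 234) and from 89.2 to 270.5 in withdrawal rats (median 251). Only ethanol rat 5 lay above every control rat, and withdrawal rats 1 and 5 lay below every control rat. The fold change in ethanol vs control was 0.23 ± 0.07, or 6.61% to 29.2% higher (unadjusted p = 0.00264, q = 0.153, limma-voom). In withdrawal vs ethanol it was -0.23 ± 0.07 (unadjusted p = 0.00426, q = 0.118), and in withdrawal vs control 0.0013 ± 0.062 (q = 0.995).

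The standard errors of both Cnih2 differences depended on the surrogate variables. Without them the ethanol vs control difference was 0.17 ± 0.22 (q = 0.819), and the exact permutation test of the levels gave p = 0.279. The withdrawal vs ethanol difference was -0.32 ± 0.22 without them (q = 0.458), with an exact permutation p of 0.335. With 4 surrogate variables both passed the threshold (0.23, q = 0.0877, and -0.24, q = 0.0469), in a fit that called 225 genes in place of 88 in ethanol vs control and 872 in place of 485 in withdrawal vs ethanol. Over 32 alternatives q ran from 0.0529 to 0.855 for the first and from 0.0455 to 0.685 for the second. The ethanol vs control difference also passed when ethanol rat 1 and withdrawal rat 5 were left out (0.23 ± 0.05, q = 0.0582, with 290 genes called in place of 88), a choice made after the data were seen. The withdrawal vs ethanol difference was then -0.18 ± 0.06 (q = 0.121). The mean log2 CPM of withdrawal rats 1 and 2 was 0.30 lower than that of the ethanol rats, which share their index set. Withdrawal rat 1 (164 CPM) lay below every ethanol rat, while withdrawal rat 2 (251 CPM) lay above the ethanol median of 234.

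Cnih3 (gene ID 690252, chromosome 13, 99663150 to 99770625, plus strand) was low in all groups. It ran from 5.96 to 8.07 CPM in control rats (median 6.84), from 5.68 to 8.49 in ethanol rats (median 6.36) and from 5.52 to 8.06 in withdrawal rats (median 7.42). Between 200 and 328 read pairs stood behind each value. Its fold change was 0.08 ± 0.09 in ethanol vs control (q = 0.778, limma-voom), -0.0085 ± 0.087 in withdrawal vs control (q = 0.971) and -0.09 ± 0.10 in withdrawal vs ethanol (q = 0.697). Of the summed length-scaled level of both cornichon genes, Cnih2 made up 85.8% ± 2.58 in control, 87.6% ± 2.56 in ethanol and 83.4% ± 7.88 in withdrawal. The lowest Cnih2 share was 68.2%, in withdrawal rat 5.

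The 9 genes differed in how much they varied among rats of the same group. The pooled SD of log2 CPM was 0.44 for Cacng8, 0.42 for Cnih2 and 0.39 for Gria1, against a median of 0.18 over all genes tested. It was 0.28 for Gria2, between 0.19 and 0.21 for Gria3, Cnih3, Cacng3 and Gria4, and 0.10 for Cacng2. Ethanol rat 1 held the lowest value of its group for 7 of the 9 genes, and withdrawal rat 5 for 5. Without these rats the SD was 0.26 for Cacng8, 0.26 for Cnih2 and 0.23 for Gria1, with 0.17 as the median of all genes.

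The members with a wide spread varied together across rats. After the group means were removed, Pearson's r over the 18 rats was 0.98 for Gria1 and Cacng8, 0.97 for Cacng8 and Cnih2, 0.94 for Gria1 and Cnih2 and 0.91 for Gria1 and Gria2. Gria4 ran against them, with r of -0.92 to Cnih2, -0.89 to Cacng8 and -0.86 to Gria1. Cacng2 was likest to Gria4 (0.62), and the highest r of Cnih3 was 0.45, with Cacng3. Without ethanol rat 1 and withdrawal rat 5 the r was 0.96 for Gria1 and Cacng8, 0.93 for Cacng8 and Cnih2, and -0.81 for Gria4 and Cnih2. Other pairs moved more, from 0.89 to 0.69 for Gria1 and Gria3, from -0.86 to -0.72 for Gria1 and Gria4, and from -0.72 to -0.49 for Gria3 and Gria4. Cacng3 moved the furthest, from 0.45 to 0.085 with Gria1, from -0.15 to 0.30 with Gria4, from -0.11 to 0.28 with Cacng2 and from 0.32 to -0.031 with Cnih2. In each of these 36 values both genes were read from the same tissue pieces with the same scaling, and no test was made of the values.

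**Figure D4:**
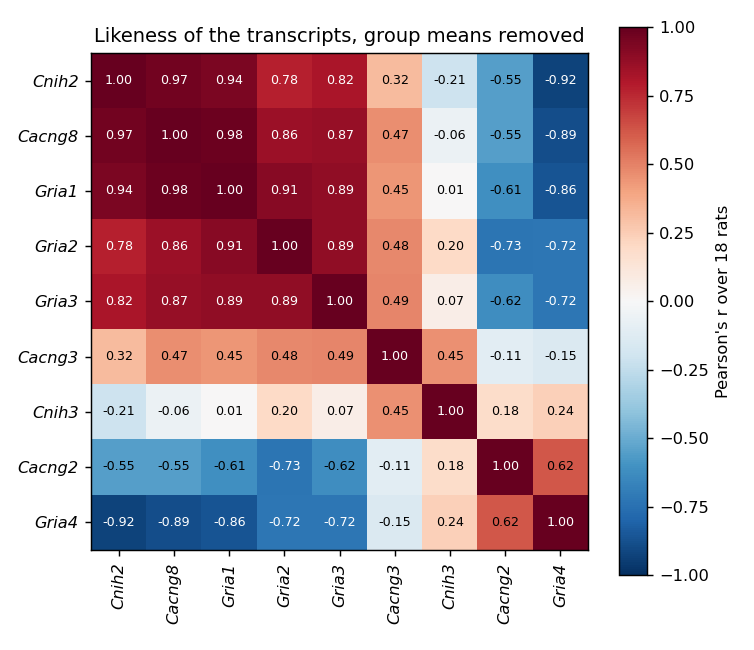
Pearson's r between the log2 levels of each pair of genes over 18 rats with group means removed, shown by colour and number. Gria1, Gria2, Gria3, Cacng8 and Cnih2 form a block of high values, with 0.78 the lowest (0.69 without ethanol rat 1 and withdrawal rat 5), and Gria4 is negative to all of them.

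Over all genes tested, those most like each member by the same measure were named for 18 rats. Cnih2 was likest to Hpca (r = 0.99), which encodes the calcium sensor hippocalcin, and to Fkbp1a (0.99). Cacng8 was likest to Actr3b (0.99) and to Slc17a7 (0.99), which encodes a vesicular glutamate transporter. Gria1 was likest to Scn3b (0.99), a sodium channel beta subunit gene, and to Neurod6 (0.98), which encodes a transcription factor of pyramidal neurons. Gria2 was likest to Nrcam (0.97) and Plcb1 (0.97), and Gria3 to Phf20l1 (0.95) and the gene with ID 102556356 (0.95). Gria4 was likest to Inpp5e (0.95) and Nub1 (0.94), Cacng2 to Asb3 (0.89) and Rimkla (0.88), Cacng3 to Arhgap33 (0.89) and Cdk5r2 (0.86), and Cnih3 to Usp51 (0.86) and Sema4f (0.86).

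Marker sums of hippocampal fields and of other cell types are set beside the levels of these genes, with no correlation computed. In the rats with the lowest CA1 sum, withdrawal rat 5 (140.0 CPM) and ethanol rat 1 (178 CPM), Gria1 was 178 and 228 CPM, the lowest of all rats. Withdrawal rat 3 had the highest CA1 sum (478 CPM), with Gria1 at 443.5 and Cnih2 at 268.5 CPM, and ethanol rat 5, next with 459, had the highest Gria1 (502) and Cnih2 (342). Gria4 and Cacng2 were not low in the rats with the lowest CA1 sum, at 217 and 63.6 CPM in withdrawal rat 5 and 164 and 64.3 CPM in ethanol rat 1. The CA2 and CA3 sum did not follow the CA1 sum, since it was the highest of all rats in ethanol rat 1 (780.0 CPM) and the lowest in withdrawal rat 5 (251 CPM). The dentate granule cell sum was 419.8 CPM in ethanol rat 1, within the control range of 410.5 to 471, and 324 CPM in withdrawal rat 5, the lowest of all rats. The CA1 sum ran from 324 to 448 in control, 178 to 459 in ethanol and 140.0 to 478 in withdrawal, and 0 of its 3 genes were called in any comparison by limma-voom, DESeq2 or edgeR, with 0, 1 and 0 at an unadjusted p under 0.05. Fibcd1 of the same list did not pass the filter, nor did Npy of the interneuron list, which had 1 read pair over all rats, Iyd of the CA2 and CA3 list and Tdo2 of the dentate list, so that these sums lack them. Ly6c1 of the endothelial list was not matched to a gene in the files. The thalamus sum, with 8 of 8 genes measured, ran from 349.8 to 963, 302 to 1748 and 284 to 655. Of its genes 0 were called by limma-voom or DESeq2 in any comparison and 1 by edgeR with 3 surrogate variables in ethanol vs control, and 5, 1 and 2 had an unadjusted p under 0.05, where all genes gave 12.5%, 19.8% and 16.5%. The interneuron sum ran from 525 to 668.5, 473 to 708 and 545 to 899.9, with Gad2, called higher in withdrawal vs ethanol, as the single one of 8 measured genes to be called. The choroid plexus sum ran from 1067 to 2228, 1407 to 5256 and 27.9 to 5258, with 0 of 6 called by limma-voom, DESeq2 or edgeR, and 1, 1 and 4 at an unadjusted p under 0.05. In other lists, limma-voom with 3 surrogate variables called Prox1 (dentate granule cells, log2 -0.26), Aldh1l1 (-0.41) and Gja1 (-0.13) of the astrocyte list and Gpr17 (oligodendrocyte precursors, -0.44) lower in withdrawal than in control. It called Gfap (astrocytes, 0.54), Olig2 (0.28) and Pdgfra (0.14) of the oligodendrocyte precursor list, and Pecam1 (0.34) and Flt1 (0.28) of the endothelial list higher. These were 1 of 6 dentate, 3 of 7 astrocyte, 3 of 5 oligodendrocyte precursor and 2 of 5 endothelial genes, against 5.41% of all genes. Their q ran from 0.0236 (Olig2) to 0.0966 (Prox1, limma-voom). In these lists edgeR without surrogate variables called 0 genes (0.185% of all genes), and DESeq2 called 0, 1, 1 and 1 (2.44%). Gfap and Olig2 were also higher in withdrawal than in ethanol (0.74 and 0.31, q = 0.0571 and 0.0476, limma-voom), where 2.72% of all genes were called. Olig1 was higher in ethanol than in control (0.22, q = 0.0821), where 0.493% of all genes were called. No defining marker of these lists was tested as a term of the model, and the part of tissue composition in the levels was not tested.

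**Figure D5:**
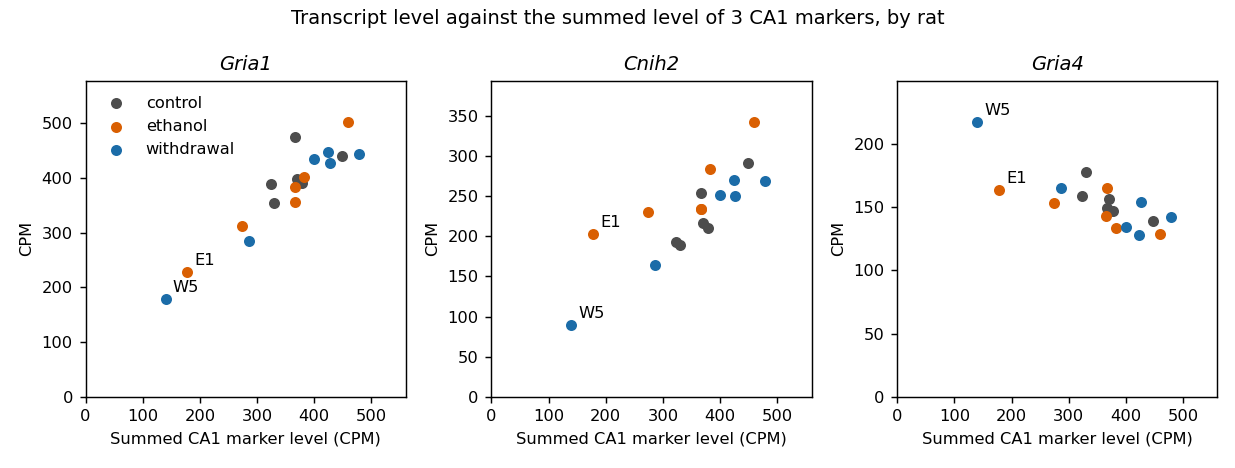
Level of Gria1, Cnih2 and Gria4 (CPM, vertical) against the summed level of 3 CA1 markers (CPM, horizontal), 1 point per rat, coloured by group. Ethanol rat 1 (E1) and withdrawal rat 5 (W5) lie at the left with Gria1 at 228 and 178, and Gria4 is highest in W5 at 217.

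Other genes of the pathway were taken from lists. Of 24 other auxiliary and assembly proteins of the receptor, such as the Shisa proteins, Gsg1l and Frrs1l, 24 were measured. Between ethanol and control 0 were called, between withdrawal and control 0, and between withdrawal and ethanol 1, with medians of -0.0035, -0.03 and -0.05 log2 against 0.00046, 0.0003 and -0.00024 over all genes. In the last comparison 2.72% of all genes were called. At an unadjusted p under 0.05 the numbers were 4, 3 and 6 of 24, where all genes gave 12.5%, 19.8% and 16.5%, and edgeR with 3 surrogate variables called 0, 0 and 2 (0.538%, 5.77% and 2.98% of all genes) and DESeq2 none (2.41%, 2.44% and 8.08% of all genes). The gene called by limma-voom was Porcn, an acyltransferase found in receptor complexes. It ran from 61.3 to 81.5 CPM in ethanol rats (median 67.5) and from 45.6 to 67.8 in withdrawal rats (median 65.8). Porcn was lower in withdrawal than in ethanol (log2 fold change -0.20 ± 0.05, q = 0.0552, limma-voom). The ranges overlapped, and without surrogate variables the fold change was -0.21 with q = 0.261, which ended the call. Over all alternatives it ran from 0.0379 to 0.407.

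Of 32 genes for scaffolds, trafficking, RNA editing and clustering of the receptor, 31 were measured, among them Dlg4, Grip1, Pick1, Camk2a, Adarb1 and Arc. Between ethanol and control 0 of 31 were called, between withdrawal and control 3 of 31, and between withdrawal and ethanol 1 of 31, with medians of -0.01, -0.01 and 0.02 log2. Of all genes 0.493%, 5.41% and 2.72% were called. At an unadjusted p under 0.05 the numbers were 7, 6 and 3 of 31, where all genes gave 12.5%, 19.8% and 16.5%. DESeq2 called 0, 1 and 0 (2.41%, 2.44% and 8.08% of all genes). The test of edgeR called 0, 3 and 1 with surrogate variables (0.538%, 5.77% and 2.98% of all genes) and none without (0.347%, 0.185% and 3.82%). Kif5c and Kif5b encode heavy chains of kinesin, the motor that carries receptors bound to GRIP1 along dendrites. Kif5c ran from 864 to 970.0 CPM in control rats (median 940.0) and from 987 to 1174 in withdrawal rats (median 996), and every withdrawal rat exceeded every control rat, a separation of the groups in one direction or the other that 1.06% of all genes showed. Its fold change was 0.14 ± 0.03 (q = 0.0442, limma-voom), and 0.15 with q = 0.229 without surrogate variables, with a range of q from 0.0191 to 0.261 over all alternatives. In ethanol rats Kif5c ran from 919.9 to 992.5 CPM (median 973), with fold changes of 0.10 ± 0.04 in ethanol vs control (q = 0.268) and 0.04 ± 0.04 in withdrawal vs ethanol (q = 0.642). Kif5b ran from 383 to 459 CPM in control and from 449 to 536 in withdrawal, with 5 of 6 withdrawal rats above every control rat and a fold change of 0.19 ± 0.05 (q = 0.0706), which was 0.21 and not called without surrogate variables (q = 0.252, in a range from 0.0322 to 0.319). In ethanol rats Kif5b ran from 404 to 556 CPM (median 476), with fold changes of 0.14 ± 0.06 in ethanol vs control (q = 0.330) and 0.06 ± 0.06 in withdrawal vs ethanol (q = 0.689). Neither gene was called between withdrawal and ethanol, and for the comparisons with control the index set cannot be told apart from the diet.

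Nptx1 encodes a neuronal pentraxin that clusters AMPA receptors at synapses. It ran from 575 to 845 CPM in control rats (median 694), from 401 to 913 in ethanol rats (median 668) and from 378 to 738 in withdrawal rats (median 629.7). All 3 groups overlapped. With 3 surrogate variables it was lower in withdrawal than in control (-0.22 ± 0.05, q = 0.0435, limma-voom) and lower in withdrawal than in ethanol (-0.22 ± 0.06, q = 0.0966). Without them the values were -0.29 and -0.09, neither of them called (q = 0.573 and 0.819, in ranges from 0.00683 to 0.668 and from 0.0216 to 0.844 over all alternatives). The 2 comparisons share the withdrawal rats.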

How the data were processed

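The dorsal hippocampus of 18 rats was sequenced as paired-end, strand-specific libraries. Alignment by the authors used STAR 2.5.2a and the build Rnor_6.0, and the deposited values are raw counts of read pairs, summed over the exons of each gene on its own strand with featureCounts 1.5.0. Of 38445 genes, 29322 were named from a reference table of assembly GRCr8, used for names only. Group and rat number came from the sample labels.

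Counts were scaled by TMM (edgeR 4.0.16), and the tested genes exceeded 0.5 CPM in 1 rat or more. The surrogate variables came from sva 3.50.0 (log2 CPM, prior count 2) and the test was limma-voom of limma 3.58.1 in R 4.3.3. All 3 groups entered 1 fit, with Benjamini-Hochberg adjustment within each comparison. Exact permutation tests were two-sided, over all splits of 6 against 6 rats. The steps were tested on simulated data, with changes larger than the limma-voom estimates of the 9 genes with 3 surrogate variables. The test therefore does not show how well changes of that size are found. No repeated library was found among the deposited counts of rats of the same group, and rats of different groups were not compared. All 9 genes were described in each comparison, then the pathway genes at q < 0.1 and the 2 genes most like each member. The 9 genes and the lists were chosen with earlier results of these data known. Alternatives were other numbers of surrogate variables, edgeR's quasi-likelihood test, DESeq2 1.42.0, other scalings, filters and groups in the fit, a replicate block, and fewer rats. Intervals cover the fitted error only. Marker genes that did not pass the filter or were not matched by name were left out of the sums, and 1 further listed marker is not reported here.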

Additional observations from a re-analysis of the deposited data

Results flagged for a closer look

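Each subunit's share and each level was screened in groups of 6 rats for a single rat far from the rest, where its gap to the nearest other rat exceeded Dixon's 95% limit. Over 51 groups screened, 2 values passed it, and chance flags about 1 in 20 groups. In withdrawal rat 5 Gria1 made up 23.3% of the length-scaled pore subunit level, against 32.2% to 37.3% in the other withdrawal rats. In the same rat Cacng2 made up 21.4% of the TARP level, against 10.01% to 13.8% in the others. The CA1 marker sum was 140.0 CPM in this rat and 287 to 478 CPM in the other withdrawal rats, and its part in these shares was not tested.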

How the results depend on the processing

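The standard errors of Gria1, Cacng8 and Cnih2 were 3.04 to 3.99 times as large without surrogate variables and those of Cacng2 1.05 to 1.19 times, and the number of genes called over all genes moved with most choices, so the percentages of all genes called, against which the 0 of 9 is read, move as well. Depth limits Cnih3 most. The control rats shared an index set that no other group had. The 9 genes stayed uncalled in withdrawal vs control under every alternative.

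A single member passed q < 0.1 in ethanol vs control with 4 surrogate variables, with only the groups compared and without ethanol rat 1 and withdrawal rat 5, and it was Cnih2 each time (0.23, 0.24 and 0.23). In withdrawal vs ethanol 2 members passed with 4 surrogate variables, Cnih2 (-0.24) and Cacng2 (0.17), and 1 with DESeq2, Cacng3 (0.35). With 1 rat left out in turn, 0 to 1 members were called in ethanol vs control, 0 in withdrawal vs control and 0 to 1 in withdrawal vs ethanol. Those calls were of Cnih2, without withdrawal rat 5 in the first (q = 0.0529, with 227 genes called over all genes against 88) and in 3 fits of the last, with the lowest q without withdrawal rat 4 (0.0455). Those 3 fits called 495 genes without ethanol rat 1, 1773 without ethanol rat 5 and 694 without withdrawal rat 4, against 485 with all rats. Within the index set shared with ethanol rats (2 withdrawal rats against 6 ethanol rats, without a fit), the difference of mean log2 CPM of Gria2 was -0.07 in place of 0.06, and the other genes kept their sign. With 1 rat left out the log2 fold change of Cnih2 ran from 0.20 to 0.26 and from -0.27 to -0.16.

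No member was called in the main fit, so none could lose a call. Of 378 member values under other choices, 313 kept their direction and side of the threshold, 6 passed it and 59 changed direction. Those that changed direction were at most 0.09 in size before and 0.15 after, with q of at least 0.663, and the cause was not tested. With 2 surrogate variables the value was Cnih2 -0.013 in withdrawal vs control, Gria4 -0.0054, Cacng8 0.0014 in withdrawal vs ethanol. With 4 surrogate variables the value was Cnih2 -0.016 in withdrawal vs control. Without surrogate variables the value was Gria3 -0.051, Cnih3 -0.054 in ethanol vs control, Gria4 0.00086, Cnih2 -0.15, Cnih3 0.047 in withdrawal vs control, Gria2 0.060, Cacng8 0.011, Cnih3 0.10 in withdrawal vs ethanol. With DESeq2 the value was Gria3 -0.039, Cnih3 -0.047 in ethanol vs control, Gria4 0.017, Cnih2 -0.067, Cnih3 0.050 in withdrawal vs control, Gria1 0.023, Gria2 0.052, Cacng8 0.055, Cnih3 0.10 in withdrawal vs ethanol. With edgeR's quasi-likelihood test and no surrogate variables the value was Gria3 -0.037, Cnih3 -0.045 in ethanol vs control, Gria4 0.019, Cnih2 -0.065, Cnih3 0.052 in withdrawal vs control, Gria1 0.023, Gria2 0.052, Cacng8 0.056, Cnih3 0.10 in withdrawal vs ethanol. With median-of-ratios scaling the value was Cnih2 -0.0018 in withdrawal vs control. With no filter the value was Gria2 0.010 in ethanol vs control, Gria4 -0.0091, Cacng8 0.016 in withdrawal vs ethanol. With only the groups compared in the fit the value was Gria1 0.035, Gria2 0.057 in ethanol vs control, Cnih2 -0.011 in withdrawal vs control, Gria4 -0.011, Cacng8 0.0061 in withdrawal vs ethanol. With the filter in at least 6 rats the value was Cnih2 -0.027 in withdrawal vs control. With the replicate block and 3 surrogate variables the value was Cnih2 -0.016 in withdrawal vs control. With the replicate block and no surrogate variables the value was Gria3 -0.051, Cnih3 -0.046 in ethanol vs control, Gria4 0.00035, Cnih2 -0.15, Cnih3 0.049 in withdrawal vs control, Gria2 0.062, Cacng8 0.010, Cnih3 0.10 in withdrawal vs ethanol. Without ethanol rat 1 and withdrawal rat 5 the value was Gria4 -0.010, Cacng8 0.041 in withdrawal vs ethanol. Without these rats and without surrogate variables the value was Cnih3 -0.0066 in ethanol vs control, Cacng8 0.031, Cnih3 0.018 in withdrawal vs control, Gria1 0.055, Gria2 0.015, Gria4 -0.0042, Cacng8 0.14, Cnih3 0.024 in withdrawal vs ethanol. With 1 rat left out, the ranges that crossed 0 were -0.10 to 0.0071 for Gria1 and -0.038 to 0.021 for Gria2 in ethanol vs control, -0.055 to 0.074 for Cnih2 and -0.055 to 0.035 for Cnih3 in withdrawal vs control, and -0.0081 to 0.051 for Gria3, -0.039 to 0.046 for Gria4 and -0.058 to 0.053 for Cacng8 in withdrawal vs ethanol.

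Over all genes, 88 were called in ethanol vs control. The number was 50 without surrogate variables, 225 with 4, 431 with DESeq2, 9 with no filter, 28 with only the groups compared, 290 without ethanol rat 1 and withdrawal rat 5, and 7 without these rats and without surrogate variables. In withdrawal vs control 965 were called. The number was 41 without surrogate variables, 601 with 2, 33 with edgeR and no surrogate variables, 435 with DESeq2, 490 with no filter, and 52 without the 2 rats and surrogate variables. In withdrawal vs ethanol 485 were called. The number was 261 with 2 surrogate variables, 872 with 4, 1443 with DESeq2, 159 with no filter, 0 with only the groups compared (limma-voom), and 111 without the 2 rats and surrogate variables. With 1 rat left out the numbers ran from 0 (control rat 4) to 257 (ethanol rat 5), from 23 (withdrawal rat 6) to 1948 (withdrawal rat 2), and from 0 (ethanol rat 2) to 1773 (ethanol rat 5). Of the pathway genes, 3 were called in withdrawal vs control, but 6 with 4 surrogate variables, 5 without the 2 rats, 1 with DESeq2, and 0 without surrogate variables, with edgeR and no surrogate variables or without the 2 rats and surrogate variables. In withdrawal vs ethanol 2 were called, but 1 with 2 surrogate variables and 0 without surrogate variables (limma-voom or edgeR), with DESeq2, with no filter, with only the groups compared, and without the 2 rats and surrogate variables. With 1 rat left out the pathway calls ran from 0 to 0, 0 (withdrawal rat 6) to 6 (withdrawal rat 2) and 0 (ethanol rat 2) to 4 (withdrawal rat 2).

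The replicate numbers name different animals. The paper states that rats were pair fed, and the labels do not say whether same-numbered rats were matched. Deviations from the group means correlated above 0.1 in 4 of 18 same-numbered pairs (-0.325 to 0.383). These deviations mix all sources of difference between rats, so they cannot decide whether the numbers pair the rats. With the replicate block and 3 surrogate variables 33 genes were called in ethanol vs control and 61 in withdrawal vs ethanol, and pathway calls were 5 in withdrawal vs control and 0 in withdrawal vs ethanol. With the block and no surrogate variables the numbers of genes were 0, 0 and 21 and pathway calls were 0 in both. The block called none of the 9 members.

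Without length scaling the shares in control, ethanol and withdrawal were 58.3%, 57.5% and 57.5% for Gria2 and 96.9%, 97.3% and 96.2% for Cnih2, and 63.4%, 61.5% and 58.2% for Cacng8. The lowest Cacng8 share on this scale was 38.7%, in withdrawal rat 5.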
